A study of Mus musculus with 3 samples.

Results

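Chemokines are small secreted proteins that guide the migration of leukocytes and of other cells. The ligands fall into families named after the spacing of their conserved cysteines (CCL, CXCL, CX3CL, XCL), and they act on receptors that signal through inhibitory G proteins (CCR, CXCR, CX3CR1, XCR1). The atypical receptors (ACKR) bind chemokines without this G protein signal and take them up, store them or carry them across cells, so that they shape how much ligand is free. In bone, stromal, endothelial and haematopoietic cells are all known as sources or targets of such signals.

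The genes described here are all rows of the feature tables whose symbol begins with Ccl, Cxcl, Cx3cl, Xcl, Ccr, Cxcr or Ackr followed by a number, or is Cx3cr1 or Xcr1. Of the 57 matching rows, the 3 rows of Cxcl9, Cxcl10 and Cxcl12 were set aside by the rule, which left 54 of 55422 rows. These stand for 53 symbols, because Ccl19 is listed under 2 identifiers, and the copy ENSMUSG00000094661.1 had 0 UMIs. Among the symbols were 31 ligands, 18 receptors and 4 atypical receptors.

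The data are droplet single-cell RNA counts from untreated C57BL/6 mice of 3 weeks, made in a study of septoclasts, the cartilage-resorbing cells next to the vessel buds of the growth plate. The 2 metaphyseal libraries (replicates 1 and 2) came from dissected metaphyses of male C57BL/6J mice after bead depletion of lineage-positive, CD45+ and CD117+ cells. The third library held GFP+ cells sorted from the metaphysis and epiphysis region of femur and tibia of male mice heterozygous for Pdgfra-H2B-GFP, a knock-in that puts a nuclear GFP under the control of the Pdgfra locus. It is 1 library with no replicate, and the labels do not say whether the metaphyseal libraries came from different mice. The p-values thus rest only on how differences between populations vary over these 3 libraries, and cannot be taken as spread between mice. The spread used in the tests was estimated in 1 fit shared by all 12 tested populations.

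After filtering, 2389, 2011 and 11319 cells were kept in metaphyseal replicate 1, metaphyseal replicate 2 and the Pdgfra-GFP library, with a median of 6257, 6458 and 5354 UMIs per cell. All series of 3 values below are in this order. Of the 15719 cells, 13388 (85.2%) were assigned to a population by marker genes that include no chemokine or chemokine receptor, and 609 cells lay near the limit of the rule on either side. Pairs of libraries shared 0, 9 and 10 cell barcodes. The labels call the metaphyseal libraries mesenchymal stromal cells, but the endothelial gene Emcn was detected in 50.3% and 47.5% of their cells and Pdgfra in 33.0% and 36.0%. In the Pdgfra-GFP library, the H2B-GFP transcript was detected in 29.0% of cells, with 452 CPM (counts per 1e+06 UMIs) in septoclast-like, 387 CPM in arterial (Pdgfra 2.71 CPM), 15.2 CPM in metaphyseal and 0 UMIs in marrow sinusoidal endothelial-like cells, and both metaphyseal libraries had 0 UMIs of it.

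Populations are named by their markers as SC-like (septoclast), mpMSC-like and dpMSC-like (metaphyseal and diaphyseal stromal), OB-like (osteoblast), aEC-like, mpEC-like and bmEC-like (arterial, metaphyseal and marrow sinusoidal endothelial), and by plain cell names for the rest. The names come from rebuilt gates, not from deposited annotation. Endothelial-like cells without a clear subtype (268, 208 and 65 cells) count among the assigned cells. They were left out of all levels, figures and comparisons below. Of the 16 other populations with at least 10 cells in a library, 12 could be tested across libraries. The fibroblast-like (396 cells), macrophage-like (90), osteoclast-like (29) and basophil-like (18) populations reached 10 cells in the Pdgfra-GFP library only, and their values have no replicate and no test. Hey2, 1 of 5 arterial markers, stood at 3.51 CPM in aEC-like cells, and the other arterial markers Gja4, Gja5, Sema3g and Bmx were between 93.3 and 1584 CPM there. The sinusoidal marker Lyve1 stood at 0 CPM in bmEC-like cells. The metaphyseal endothelial marker Esm1 was at 64.4 CPM in mpEC-like cells, below the 271 CPM of all other cells. The remaining markers of the bmEC-like and mpEC-like classes were higher in their own class than in other cells. Levels are UMIs summed over the cells of a population in a library, in CPM of that sum. They come from transcript 3′ ends and are not divided by gene length. Except for log2 differences, intervals are exact 95% Poisson or binomial ranges and cover counting error only.

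Of the 53 symbols, 48 had at least 1 UMI in a kept cell. Ccl1, Ccl20, Ccl26, Ccr4 and Ccr8 had none. A mean of at least 50 CPM in a population was reached by 26 symbols (16 ligands, 7 receptors and 3 atypical receptors), while 24 stayed under 20 CPM in every population (13 ligands and 11 receptors), with means of at most 13.6 CPM. In between lay Ackr2, Ccl11 and Cxcl3. Only 20 symbols passed the filter on low counts and were tested with all 10401 genes of the fit: 11 ligands, 5 receptors and the 4 atypical receptors. A gene that is high in 1 population passes this filter through that population, so counts over these 20 say nothing of the other 33.

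**Figure D1:**
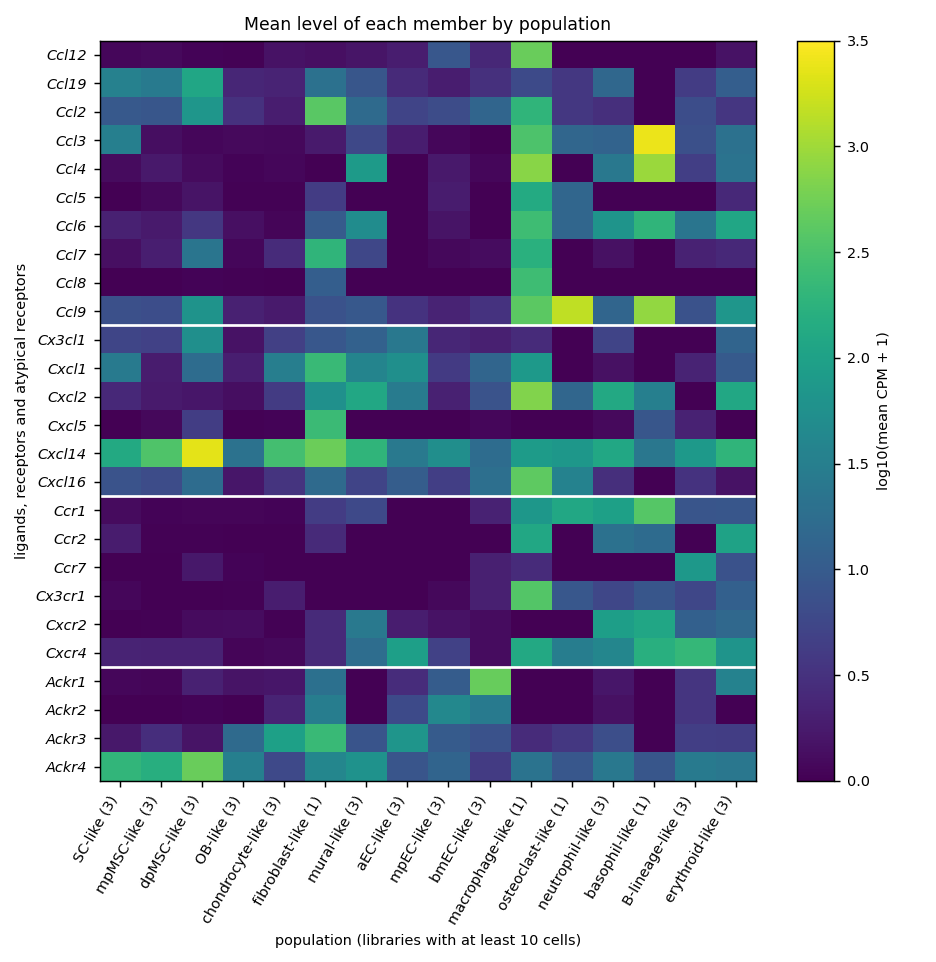
Mean level of 26 chemokine ligands, receptors and atypical receptors (rows, grouped by kind with white lines) in 16 populations (columns, with the number of libraries in parentheses), coloured by log10 of the mean CPM plus 1. Cxcl14, Ackr4 and Ccl19 are brightest in dpMSC-like cells, Ackr1 in bmEC-like cells, Ccl8 and Ccl12 in macrophage-like cells and Ccl3 and Ccl4 in basophil-like cells, the last 2 populations resting on 1 library.

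Each of the 4 atypical receptors had its own pattern over stroma and vessels. Ackr4 (ENSMUSG00000079355.5, chr9:104084157-104126933, minus strand, positions of GRCm38.p6), which takes up CCL19, CCL21 and CCL25, was highest in stromal classes. In dpMSC-like cells it stood at 514, 493 and 480 CPM, in SC-like cells at 221, 189 and 192 CPM, and in mpMSC-like cells at 140, 125 and 205 CPM. OB-like cells had 24.9, 32.2 and 38.1 CPM and bmEC-like cells 0.420, 2.30 and 6.30 CPM. The 3 libraries thus gave 1 order for dpMSC-like, OB-like and bmEC-like cells without overlap, whereas the ranges of SC-like and mpMSC-like cells overlapped. Ackr4 was detected in 85.7%, 88.4% and 73.0% of dpMSC-like cells (median depth 5609, 5632 and 3567 UMIs). Among the dpMSC-like cells with at least 2000 UMIs, each thinned to 2000 UMIs, the shares were 58.8%, 60.2% and 56.4%. All shares after thinning leave out cells with fewer than 2000 UMIs. Of the bmEC-like cells, 0.248%, 1.14% and 3.45% had a UMI at a median of 5570, 5862 and 5375 UMIs. Droplets with at most 100 UMIs, which hold mostly free RNA, carried Ackr4 at 109, 115 and 151 CPM. The part of free RNA in smaller values, such as 93.5 CPM in mural-like cells of the sorted library, was not tested.

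Ackr1 (ENSMUSG00000037872.5, chr1:173331886-173333750, minus strand), known as a marker of venular and sinusoidal endothelium and of erythroid cells, was concentrated in bmEC-like cells. Its level there was 343, 288 and 803 CPM, against 2.13, 6.37 and 19.5 CPM in mpEC-like cells and 0, 0 and 5.41 CPM in aEC-like cells. Every library held more Ackr1 in bmEC-like cells than any library held in another population. The share of bmEC-like cells with a UMI was 48.0%, 41.2% and 82.8%, and after thinning 33.7%, 26.1% and 67.3%, while mpEC-like cells had 1.11%, 2.35% and 3.90% at a median of 6226, 6470 and 5460 UMIs. The share was higher in the 58 bmEC-like cells of the sorted library than in both metaphyseal libraries, a difference that was not tested. Erythroid-like cells were next among the tested populations, with 13.8, 14.9 and 73.9 CPM, the last from 22 of 73 cells. Near-empty droplets carried Ackr1 at 42.8, 30.1 and 9.48 CPM, above the erythroid-like level in both metaphyseal libraries. The part of free RNA in these values was not tested.

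Ackr2 (ENSMUSG00000044534.8, chr9:121898355-121911074, plus strand), a scavenger of inflammatory CC chemokines known from lymphatic endothelium, was lower but also vascular. In mpEC-like cells it measured 45.6, 44.0 and 36.8 CPM and in bmEC-like cells 31.1, 36.4 and 12.6 CPM. Arterial cells carried 5.01, 2.19 and 8.12 CPM, below both other endothelial classes in each library, although in the sorted library aEC-like and bmEC-like cells had only 3 and 4 UMIs. In all 3 libraries 0 UMIs were found in SC-like, in mpMSC-like and in OB-like cells, and dpMSC-like cells had 1 UMI in all. Fibroblast-like cells had 29.7 CPM (95% interval 23.3 to 37.2) from 32 of 396 cells.

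Ackr3 (ENSMUSG00000044337.5, chr1:90203980-90216751, plus strand), which scavenges CXCL11 and CXCL12, followed yet another pattern. Chondrocyte-like cells had 118, 126 and 44.8 CPM, aEC-like cells 71.8, 63.4 and 62.2 CPM, and OB-like cells 8.47, 16.1 and 20.9 CPM. The fibroblast-like cells stood at 231 CPM (213 to 251), with UMIs in 183 of 396 cells. Stromal classes were near the floor, with 1.40, 2.02 and 2.21 CPM in mpMSC-like cells. Near-empty droplets carried Ackr3 at 12.6, 16.4 and 25.4 CPM, above the OB-like level in every library. The ranges of chondrocyte-like and aEC-like cells overlapped, because the sorted library gave chondrocyte-like cells a lower value than the metaphyseal libraries.

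**Figure D2:**
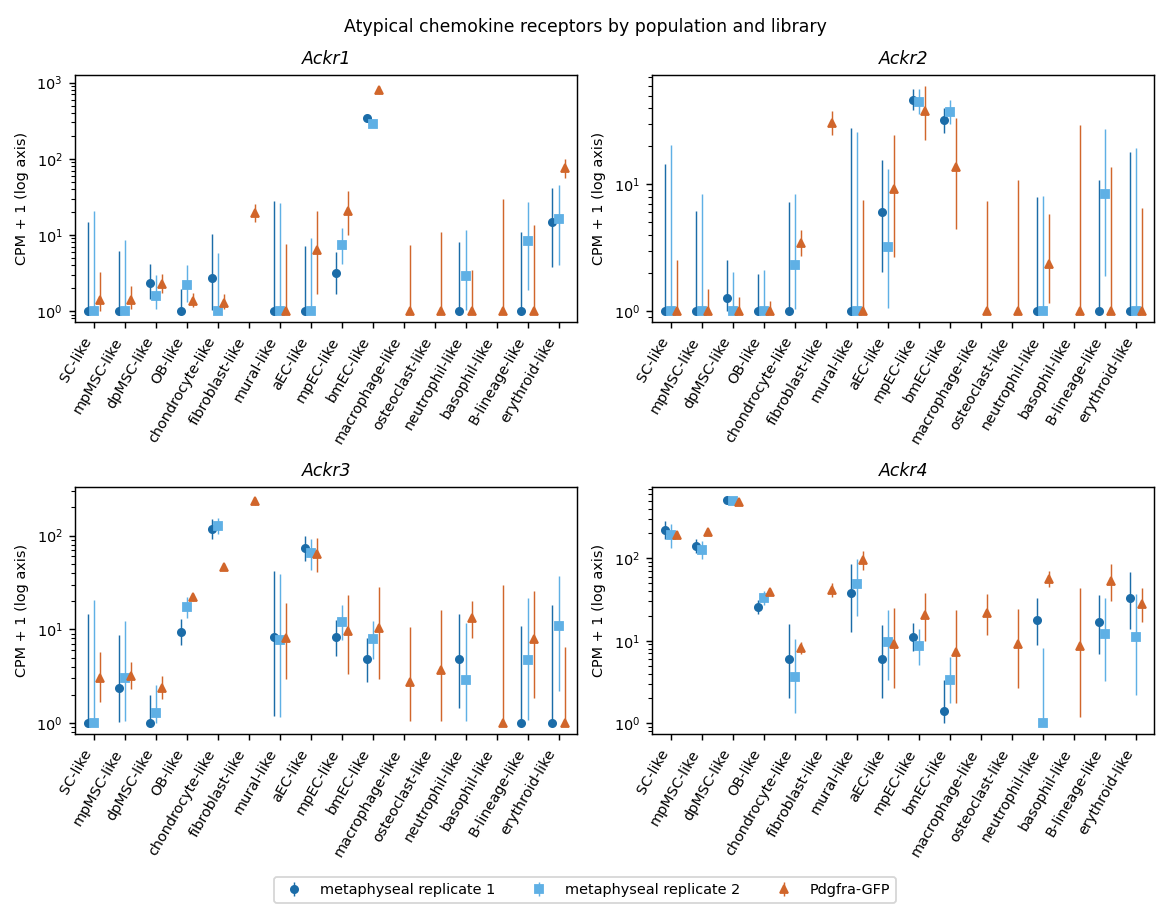
Levels of Ackr1, Ackr2, Ackr3 and Ackr4 (CPM plus 1, log axis) in each population and library, with points for libraries and bars for exact 95% Poisson intervals. Ackr4 is highest in dpMSC-like cells at 480 to 514 CPM, Ackr1 in bmEC-like cells at 288 to 803 CPM, Ackr2 in mpEC-like cells at 36.8 to 45.6 CPM among populations with 3 libraries, and Ackr3 in fibroblast-like cells at 231 CPM.

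The region before the transcription start of Ackr4 is shown because Ackr4 was the atypical receptor called higher in the mesenchymal classes. RefSeq (GRCm38.p6) gave a window of 250 bases before the start for 38 of the 53 symbols. These had 40 windows in all, because Ccl25 and Ccr6 were listed with more than a single start. The Ackr4 window is chr9:104126644-104126893 on the minus strand, printed 5′ to 3′ with capitals for its 1 match to the TATA box letters TATAAA, at -185 to -180 from the start. It lies inside the gene span given above, which comes from GENCODE and begins further upstream than the RefSeq start.
Ackr4: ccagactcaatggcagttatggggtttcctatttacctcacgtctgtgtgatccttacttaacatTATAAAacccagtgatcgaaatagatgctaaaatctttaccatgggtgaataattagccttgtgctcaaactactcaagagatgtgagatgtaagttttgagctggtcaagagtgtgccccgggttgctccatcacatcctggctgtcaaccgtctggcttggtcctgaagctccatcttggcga
The letters TATAAA, searched on both strands, occurred in a window of 12 of the 38 symbols and in 12.4% of 32851 windows of all genes. The counts are thus of symbols and the percentages of windows. Those of AP-1 (TGANTCA) were found for 3 of 38 symbols and in 6.75% of all windows, and those of C/EBP (TTGCNNAA) for 2 of 38 symbols and in 9.56% of all windows.

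Among the stromal ligands, Cxcl14 (ENSMUSG00000021508.11, chr13:56288643-56296551, minus strand), which attracts monocytes and other cells, marked dpMSC-like cells. It measured 2196, 2174 and 2515 CPM there and was detected in 99.4%, 99.3% and 96.6% of the cells, or 94.4%, 94.4% and 91.8% after thinning. In mpMSC-like cells it had 284, 190 and 553 CPM and in chondrocyte-like cells 359, 104 and 396 CPM. SC-like cells held 151, 78.7 and 167 CPM, OB-like cells 11.3, 16.4 and 32.4 CPM, and bmEC-like cells 12.2, 5.53 and 31.5 CPM. No library of another population reached the lowest dpMSC-like value. Only 1.24%, 2.27% and 13.8% of bmEC-like cells had a UMI, and near-empty droplets carried Cxcl14 at 478, 464 and 741 CPM, and the part of free RNA in the lower levels of other populations was not tested.

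Another 4 ligands had the same order between the stromal classes in each library, at lower levels. Ccl19, a ligand of CCR7 that ACKR4 also binds, measured 97.1, 95.1 and 154 CPM in dpMSC-like and 15.4, 32.3 and 29.6 CPM in mpMSC-like cells. A near-identical copy of Ccl19 is listed, so reads that fit both could be lost or split. Ccl9, a ligand of CCR1, measured 52.8, 50.6 and 84.7 against 11.2, 0 and 6.12 CPM. For Cx3cl1, the membrane-bound ligand of CX3CR1, the values were 46.5, 42.5 and 75.7 against 1.40, 4.04 and 5.73 CPM. Ccl2, the monocyte attractant that acts on CCR2, stood at 46.5, 53.7 and 105 CPM against 2.80, 2.02 and 17.8 CPM. The ranges did not overlap for any of the 4.

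The ligands differed in how they spread over dpMSC-like cells. UMIs of Cxcl14 were in nearly all cells, those of Ccl19 in 38.7%, 36.8% and 36.2%, of Cx3cl1 in 21.0%, 19.5% and 23.5%, of Ccl9 in 20.1%, 20.5% and 18.5%, and of Ccl2 in 11.04%, 11.9% and 15.1%. After thinning, Ccl19 was in 17.7%, 16.9% and 24.1% and Ccl2 in 5.13%, 5.89% and 10.2% of the cells. The shares of bmEC-like cells with Ccl2 were 2.97%, 1.42% and 3.45%. Ccl7, the neighbour of Ccl2 on chromosome 11, had 11.8, 24.6 and 29.6 CPM in dpMSC-like cells and did not pass the filter for testing. Summed over all 31 ligands, dpMSC-like cells had 2517, 2509 and 3038 CPM, of which 320.5, 334 and 523 CPM remained without Cxcl14. The corresponding sums without Cxcl14 were 51.8, 70.7 and 98.2 CPM in mpMSC-like cells and 8.99, 16.1 and 18.0 CPM in OB-like cells.

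**Figure D3:**
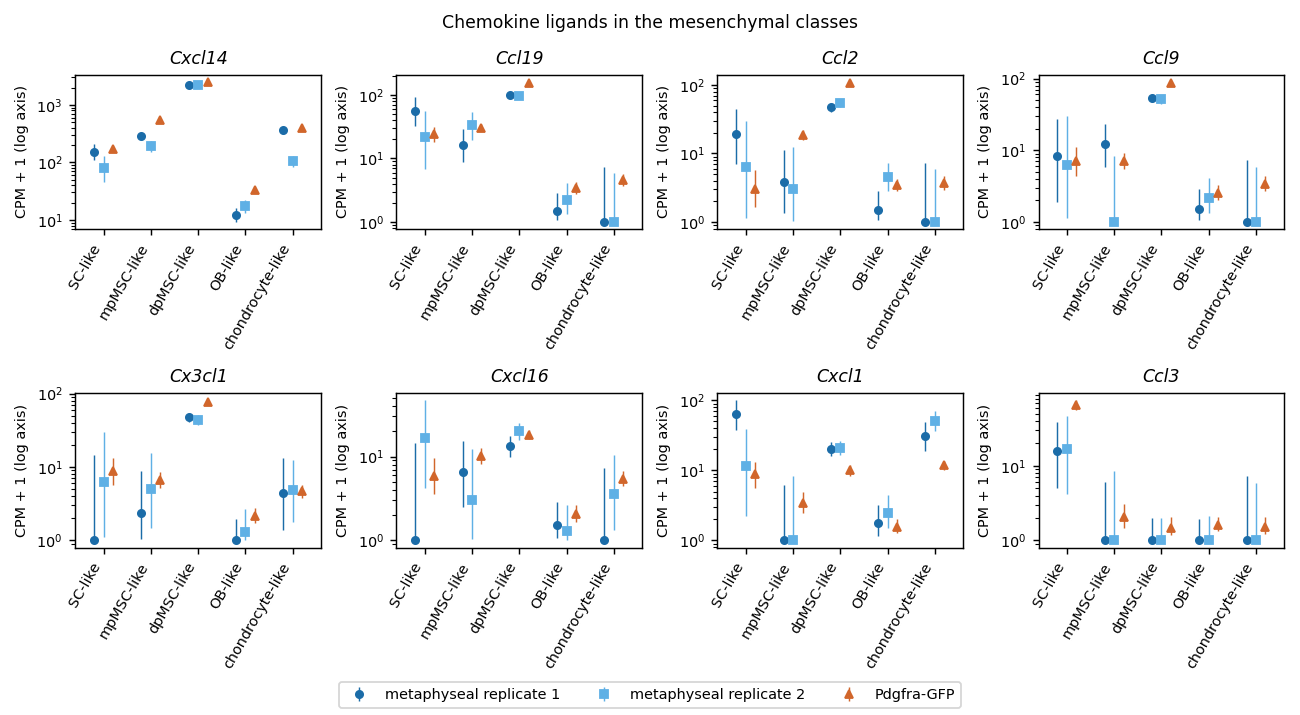
Levels of 8 ligands (CPM plus 1, log axis) in 5 mesenchymal populations, with points for the 3 libraries and bars for exact 95% Poisson intervals. Cxcl14, Ccl19, Ccl2, Ccl9 and Cx3cl1 are higher in dpMSC-like than in mpMSC-like cells in every library, and Ccl3 is highest in SC-like cells at 14.7, 15.7 and 64.4 CPM.

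The comparison of dpMSC-like with mpMSC-like cells asked how the 2 stromal classes of the metaphysis and marrow differ. Of the 20 tested members, 8 were higher in dpMSC-like cells and 0 lower by edgeR (0 also at an unadjusted p under 0.05 and by DESeq2), where 14.8% of all genes were called higher and 15.0% lower. Those higher were Ackr4 and 7 ligands, and no receptor was called. The median log2 fold change of the members was 1.45, against 0.04 over all genes. Such medians, here and below, include members with few or no UMIs in the classes compared, whose fold changes are poorly measured. Cx3cl1 had the largest of these log2 fold changes at 3.60 ± 0.36 (SE, adjusted p = 5.1e-09, from the quasi-likelihood fit of edgeR with Benjamini-Hochberg values, as are all adjusted p below). Ccl9 rose by 3.59 ± 0.44 (adjusted p = 1.3e-07), Cxcl14 by 2.90 ± 0.47 (adjusted p = 1.0e-05), Ccl2 by 2.67 ± 0.47 (adjusted p = 3.3e-05), Ccl19 by 2.18 ± 0.37 (adjusted p = 1.9e-05) and Ackr4 by 1.65 ± 0.27 (adjusted p = 1.1e-05). These are fitted values on the TMM scale, not ratios of the CPM above. Cxcl1, a ligand of CXCR2, was called at 2.37 ± 0.59 (adjusted p = 0.0022), with 19.4, 20.1 and 8.99 CPM against 0, 0 and 2.47 CPM. The dpMSC-like level of Cxcl1 lay below that of near-empty droplets in metaphyseal replicate 1 and in the sorted library. Cxcl16, the ligand of CXCR6, was called at 1.26 ± 0.40 (adjusted p = 0.0155). Its call was lost without any 1 of the 3 libraries, without the library as a block and on clusters (adjusted p from 0.00311 to 0.155 over 12 alternatives). A single cell of the sorted library held 88 of its 137 mpMSC-like UMIs of Ccl2, and without the highest cell of each sum the call of Ccl2 stood. With clusters in place of gates, Ackr4 (adjusted p = 0.0528, from 1.3e-12 over 14 alternatives) and Cxcl1 (adjusted p = 0.188, from 4.4e-09) were no longer called.

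Other genes of the pathway are given beside the 14.8% of all genes called higher and 15.0% called lower in this comparison. Of 7 tested genes of the NF-kB and inducer-receptor list, 4 rose in dpMSC-like cells and 0 fell. Those that rose were Il1r1, the interleukin-1 receptor (log2 fold change 2.46, adjusted p = 2.1e-09), Nfkb1 (1.14, adjusted p = 0.00032), Nfkbia, which encodes an inhibitor of NF-kB (1.14, adjusted p = 0.0356), and Tnfrsf1a (0.94, adjusted p = 0.00020). Among 10 tested genes of receptor desensitisation, Arrb1, Grk5, Rgs16 and Rgs2 rose and Rgs10 fell. Of 15 tested G protein subunits and effectors, 2 rose (Gnai1 and Pik3cg) and 3 fell (Elmo1, Gng2 and Prex1). The 4 syndecans, which hold chemokines on the cell surface, had 1 member higher (Sdc1, 1.92) and 1 lower (Sdc3, -2.81). Dpp4, a peptidase that trims chemokines, did not pass the test. Of the 3 tested chemokine genes outside the symbol rule, Pf4 was higher and Ccrl2 lower.

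SC-like cells were compared with the mpMSC-like cells next to them, the central pair of the study. Of the 20 members, 2 were higher and 0 lower by edgeR (2 lower at an unadjusted p under 0.05 and 0 by DESeq2), against 3.08% of all genes higher and 2.81% lower, and the median log2 fold change was -0.0038 for members and -0.02 for all genes. Ccl3, a ligand of CCR1, measured 14.7, 15.7 and 64.4 CPM in SC-like cells against 0, 0 and 1.04 CPM in mpMSC-like cells. The groups did not overlap, and the log2 fold change was 5.60 ± 0.92 (adjusted p = 0.00015). These values rested on 4, 3 and 157 UMIs in 2 of 27, 3 of 17 and 31 of 299 SC-like cells, and 1 cell of the sorted library held 69 of the 157. Near-empty droplets carried Ccl3 at 7.44, 3.20 and 8.88 CPM, and the part of free RNA in these values was not tested. Without the Pdgfra-GFP library the call was lost (adjusted p = 0.193, with a range from 2.2e-22 to 0.193 over 12 alternatives), as it was with the DESeq2 Wald test (adjusted p = 0.0728), with log2 fold changes of 5.41 to 6.96 over the alternatives. Without the highest cell of each sum Ccl3 no longer passed the filter on low counts, so the call could not be tested there. Ccl4, which lies beside Ccl3 on chromosome 11, had 0, 0 and 0.821 CPM in SC-like cells. Cxcl1 was also called, at 2.75 ± 0.73 (adjusted p = 0.0169), from 62.5, 10.5 and 7.80 CPM against 0, 0 and 2.47 CPM. This call was lost without metaphyseal replicate 1 and without the highest cells (adjusted p up to 0.430, from 1.0e-06, over 13 alternatives), and 10 of the 17 UMIs of replicate 1 were in 1 cell. The SC-like level of Cxcl1 lay below that of near-empty droplets in metaphyseal replicate 2 (15.5 CPM) and in the sorted library (14.6 CPM).

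For Ackr4 and Ccl19 no difference between SC-like and mpMSC-like cells was called, and the intervals left room for either direction. The log2 difference was 0.26 for Ackr4 (approximate 95% interval -0.32 to 0.83) and -0.00089 for Ccl19 (-0.72 to 0.72). Cxcl14 was at 151, 78.7 and 167 CPM in SC-like against 284, 190 and 553 CPM in mpMSC-like cells, and its log2 fold change of -1.42 missed the threshold (adjusted p = 0.0939), with both classes below the near-empty level in every library. In the same comparison 1 of 3 tested chemokine genes outside the symbol rule rose, namely Pf4 (2.97 ± 0.64, adjusted p = 0.00317), known from megakaryocytes and platelets. Also higher were Sdc1 among 4 syndecans (1.58, adjusted p = 3.7e-05) and Rgs16 among 10 desensitisation genes, whereas Elmo1 and Gnai1 of 15 effectors were lower. Of 7 tested genes of the NF-kB and inducer-receptor list, 0 were higher and 0 lower. The 18 receptors summed to 0, 0 and 8.21 CPM in SC-like cells.

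Osteoblast-like cells were compared with the same stromal class. Against mpMSC-like cells, 1 of 20 was higher and 6 were lower, where 17.8% of all genes were higher and 17.6% lower, and the median log2 fold change was -1.04 for members and -0.0037 for all genes. Ackr3 was the member that rose, by 3.72 ± 0.53 (adjusted p = 1.5e-06). Those that fell were Cxcl14 (-3.25, adjusted p = 3.8e-06), Ccl19 (-3.02, adjusted p = 8.1e-06), Cxcl16 (-2.28, adjusted p = 0.00047), Cx3cl1 (-1.66, adjusted p = 0.0090), Ccl2 (-1.56, adjusted p = 0.0337) and Ackr4 (-1.54, adjusted p = 4.9e-05). Ackr3, Cxcl14, Cxcl16, Cx3cl1 and Ccl2 lay below their near-empty levels in both classes in every library, and so did Ackr4 in OB-like cells. Without the Pdgfra-GFP library, Cx3cl1 and Cxcl16 lost their calls and Ccl2 reversed to 0.29 (adjusted p = 0.936), while the range of adjusted p for Ccl2 over 14 alternatives was 0.00012 to 0.936. Cx3cl1 was also lost without metaphyseal replicate 2 (adjusted p = 0.0643, range 0.00203 to 0.119) and Ccl2 without metaphyseal replicate 1 (adjusted p = 0.128). The call of Ccl2 was lost as well with the DESeq2 Wald test, without the library as a block, on clusters and without the highest cell of each sum. Most mpMSC-like UMIs of Ccl2 in the sorted library were in the single cell named above. Without the Pdgfra-GFP library 4 members in all were called in place of 7. The inducer receptors Il1r1, Tlr4 and Tnfrsf1a fell as well, 3 of 7 tested with 0 higher.

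Chondrocyte-like cells, the cells of the cartilage that septoclasts resorb, had 3 members higher and 3 lower than mpMSC-like cells (18.8% of all genes higher, 15.5% lower). Ackr3 rose by 5.78 ± 0.52 (adjusted p = 1.4e-10) and Cxcl1 by 3.53 ± 0.59 (adjusted p = 1.5e-05), the latter from 30.3, 49.9 and 10.8 CPM in chondrocyte-like cells. In the sorted library this Cxcl1 level lay below the 14.6 CPM of near-empty droplets. Ackr2 was called higher (adjusted p = 0.00064), with 38 UMIs over 3 chondrocyte-like sums (37 of them in the sorted library) and 0 over 3 mpMSC-like sums, which makes it at least 6.87-fold higher against a floor of 3 UMIs over the group. Lower were Ackr4 (-4.35, adjusted p = 9.3e-11), Ccl19 (-2.70, adjusted p = 9.2e-05) and Ccl2 (-2.02, adjusted p = 0.0132). Without the Pdgfra-GFP library, Ackr2 (adjusted p = 0.493, from 4.3e-07) and Ccl2 (adjusted p = 0.467; 4.6e-07 to 0.491 over the alternatives) lost their calls. Ccl2 was also not called with the DESeq2 Wald test, without the library as a block, on clusters or without the highest cell of each sum, so that 5 of 14 alternatives ended its call. The median log2 fold change was 0.01 for members and 0.08 for all genes. Of 7 tested genes of the NF-kB and inducer-receptor list, 2 were higher (Nfkb1 and Nfkbiz) and 3 lower (Il1r1, Tlr4 and Tnfrsf1a).

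The endothelial-like classes were set against the mesenchymal classes (SC-like, mpMSC-like, dpMSC-like and OB-like) to see in which of the 2 compartments each member was higher. Of the 20 members, 4 were higher in the endothelial-like classes and 4 lower, beside 29.4% of all genes higher and 28.0% lower, and the median log2 fold change was -0.67 for members and 0.01 for all genes. Ackr1 (5.25 ± 1.11, adjusted p = 0.00016), Ackr3 (2.32 ± 0.39, adjusted p = 4.9e-06) and Ackr2 rose. Ackr2 had 364 endothelial UMIs and 1 mesenchymal UMI, a ratio of 1945 with a counting interval of 347 to 77036 (adjusted p = 4.8e-09), while the fitted log2 fold change of 7.87 ± 0.74 depends on the prior count. The fourth was Cxcl16 (0.87 ± 0.31, adjusted p = 0.0182). Ackr4 fell by 4.96 ± 0.25 on the log2 scale (adjusted p = 1.2e-17), Ccl19 by 4.34 ± 0.54 (adjusted p = 2.3e-08), Cxcl14 by 3.23 ± 0.31 (adjusted p = 1.2e-10) and Ccl9 by 2.45 ± 0.56 (adjusted p = 0.00038). Without the Pdgfra-GFP library Ackr1 was not called. The remaining SC-like and mpMSC-like sums held 0 UMIs of it, so that fit cannot decide the call. Over 14 alternatives its log2 fold changes were 3.92 to 5.99, with adjusted p from 3.2e-12. The call of Cxcl16 was lost without the same library, without metaphyseal replicate 1 and without the library as a block (adjusted p from 0.0124 to 0.228 over the alternatives). For Ackr3 the call weights the classes equally and aEC-like cells had the highest mean level among them (65.8 CPM), while mpEC-like (8.97 CPM) and bmEC-like cells (6.71 CPM) had less than OB-like cells (15.2 CPM). Chondrocyte-like cells (mean 96.2) and fibroblast-like cells (231 in the sorted library) were not in the mesenchymal group. From pooled UMIs (162 against 529) the Ackr3 ratio was 1.64 (1.36 to 1.95). The Cxcl16 call weights the classes equally too, and its pooled ratio (110 against 440 UMIs) was 1.34 (1.07 to 1.65). Against the mean of the other populations, Cxcl16 was called higher both in bmEC-like and in dpMSC-like cells.

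Of the pathway lists in this comparison, where 29.4% of all genes were called higher and 28.0% lower, all 4 syndecans were lower in the endothelial-like classes: Sdc2 by a log2 fold change of -6.29, Sdc4 of -3.91, Sdc1 of -2.85 and Sdc3 of -1.15. Of 10 desensitisation genes, 6 were higher (Arrb1, Arrb2, Grk2, Grk3, Grk5 and Rgs2) and Rgs10 was lower. Among 15 effectors 7 rose, Gng2 by 3.28, and Dock2 and Gnai1 fell. Of 7 genes of the NF-kB and inducer-receptor list, 4 rose and Il1r1 fell, and the 3 tested chemokine genes outside the symbol rule (Ccrl2, Cklf and Pf4) all rose.

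The endothelial-like classes were then compared with each other. Against mpEC-like cells, bmEC-like cells had 3 members higher and 2 lower (7.13% and 6.63% of all genes), with a median log2 fold change of -0.39 for members and -0.03 for all genes. Ackr1 rose by 6.02 ± 0.35 (adjusted p = 2.6e-13), and this call stood under all 14 alternatives. Cxcl16 rose by 2.08 ± 0.46 (adjusted p = 0.00194) from 4.69, 3.47 and 2.16 CPM in mpEC-like cells to 18.1, 13.4 and 22.0 CPM, and Cxcl1 by 2.62 ± 0.72 (adjusted p = 0.0115) to 18.9, 13.4 and 6.30 CPM. Ackr4 (-2.51, adjusted p = 0.0079) and Cxcl14 (-2.07, adjusted p = 0.0131), both at levels under those of near-empty droplets, were called lower. The Cxcl1 level of bmEC-like cells likewise lay below that of near-empty droplets in every library. Without metaphyseal replicate 1 only Ackr1 kept its call, and without metaphyseal replicate 2 Cxcl1 and Cxcl14 lost theirs (adjusted p from 5.0e-07 to 0.297 and from 1.1e-08 to 0.969 over the alternatives). In the NF-kB and inducer-receptor list Nfkb1, Nfkbia and Nfkbiz rose (3 of 7, with 0 lower), and Dpp4 rose by 2.60 (adjusted p = 0.0231). In aEC-like against mpEC-like cells, 2 of these 7 genes rose (Nfkbia and Rela) and 0 fell, beside 4.58% and 5.22% of all genes.

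Against mpEC-like cells, aEC-like cells had 5 members higher and 1 lower (4.58% and 5.22% of all genes) and a median log2 fold change of 0.17 for members and -0.08 for all genes. Cxcr4, the signalling receptor of CXCL12, measured 78.5, 91.8 and 111 CPM in aEC-like cells, against 2.56, 2.32 and 6.49 CPM in mpEC-like cells and 0.420, 0.460 and 0 CPM in bmEC-like cells. Its log2 fold change was 5.11 ± 0.52 (adjusted p = 1.5e-08), and the groups did not overlap. Cxcr4 UMIs were in 36.7%, 36.1% and 43.8% of aEC-like cells, or 12.7%, 16.4% and 10.0% after thinning. Ackr3, which binds the same ligand, rose by 2.84 ± 0.47 (adjusted p = 5.8e-05), so both receptors of CXCL12 were higher in the same endothelial class, although with clusters in place of gates Ackr3 was not called (adjusted p = 0.0802, from 2.2e-15 over 14 alternatives). Cxcl1 rose by 4.61 ± 0.67 (adjusted p = 8.4e-06) with 68.5, 26.2 and 70.4 CPM, and Cx3cl1 by 3.47 ± 0.58 (adjusted p = 9.0e-05) with 26.7, 24.0 and 21.6 CPM. Cxcl2, another CXCR2 ligand, was called (adjusted p = 0.0262) from 41 UMIs against 3, a ratio of 43.5 with a counting interval of 13.9 to 219.5. The call was lost without metaphyseal replicate 1 (adjusted p = 0.518) and without metaphyseal replicate 2 (adjusted p = 0.0756; 9.9e-16 to 0.518 over 14 alternatives), as well as with the DESeq2 Wald test, without the library as a block and on clusters, and 21 of the 28 UMIs of replicate 1 were in 1 cell. Ackr2 was lower in aEC-like cells (-3.12, adjusted p = 0.00082). This call was lost without metaphyseal replicate 1 (adjusted p = 0.0756) and with clusters in place of gates (range 2.0e-08 to 0.176 over 14 alternatives).

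**Figure D4:**
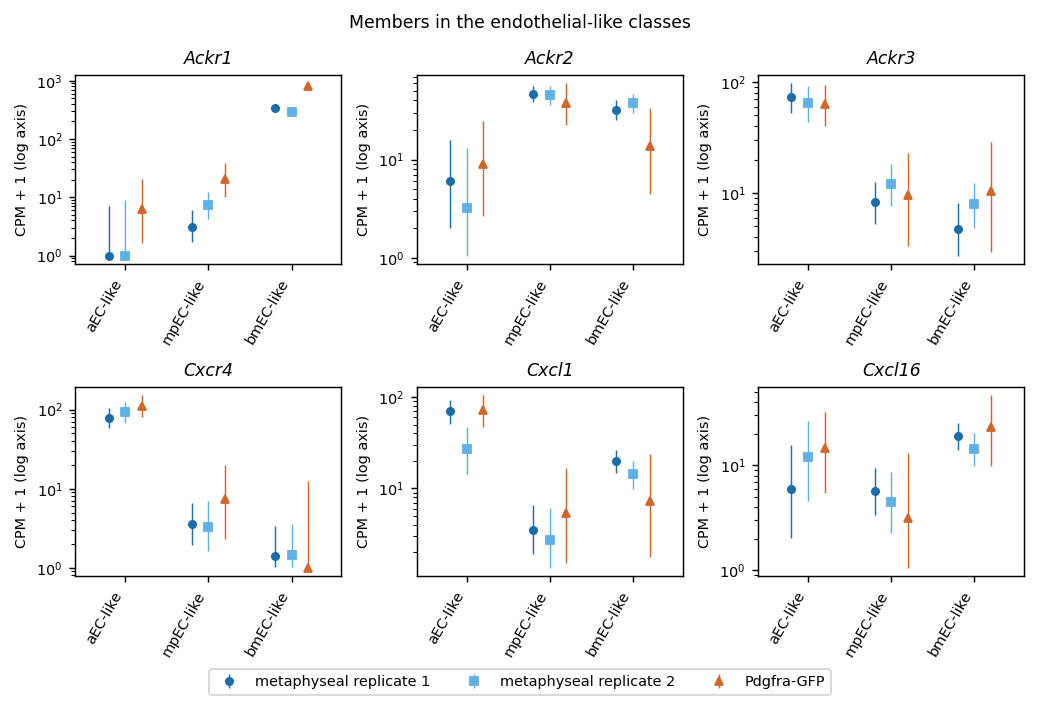
Levels of Ackr1, Ackr2, Ackr3, Cxcr4, Cxcl1 and Cxcl16 (CPM plus 1, log axis) in the 3 endothelial-like classes, with points for libraries and bars for exact 95% Poisson intervals. Ackr1 is highest in bmEC-like cells (288 to 803 CPM), and Cxcr4 (78.5 to 111 CPM) and Ackr3 (62.2 to 71.8 CPM) in aEC-like cells.

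Signalling receptors were mainly in haematopoietic cells. In B-lineage-like cells Cxcr4 measured 296, 242 and 96.4 CPM, in neutrophil-like cells 49.1, 44.0 and 24.2 CPM, in macrophage-like cells 128 CPM and in basophil-like cells 163 CPM. Ccr7, the receptor of CCL19, was at 64.0, 80.6 and 72.3 CPM in B-lineage-like cells and had a mean of at most 6.52 CPM in every other population. Cxcr2, the receptor of CXCL1, CXCL2 and CXCL5, had 94.5, 132 and 48.5 CPM in neutrophil-like and 116 CPM in basophil-like cells. For Ccr1, which binds CCL3, CCL6 and CCL9, neutrophil-like cells had 112, 119 and 62.0 CPM, osteoclast-like cells 126 CPM, macrophage-like cells 70.9 CPM and basophil-like cells 380 CPM (281 to 502). Cx3cr1, the receptor of CX3CL1, was at 360 CPM in macrophage-like cells, in 63 of 90 cells. Macrophage-like cells also had Ccr2 at 125 CPM. Neutrophil-like cells held Pdgfra at 28.4, 7.66 and 23.6 CPM in the 3 libraries, and the part of this in their values was not tested.

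Ligands of the haematopoietic populations had no replicate for 3 of them. Macrophage-like cells had Ccl4 at 745 CPM, Cxcl2 at 680 CPM, Ccl12 at 502 CPM, Cxcl16 at 429 CPM, Ccl9 at 417 CPM and Ccl3 at 329 CPM. Ccl8 (258 CPM), Ccl6 (256 CPM), Ccl2 (195 CPM) and Ccl7 (166 CPM) were also there, and Ccl5 at 135 CPM, of whose 78 UMIs 64 were in 1 cell. Ccl8 and Ccl12 reached 50 CPM in macrophage-like cells only among the 16 populations. Basophil-like cells had Ccl3 at 2486 CPM (2222 to 2774), Ccl4 at 929 CPM, Ccl9 at 852 CPM and Ccl6 at 194 CPM. Osteoclast-like cells had Ccl9 at 1478 CPM (1358 to 1607), in 21 of 29 cells, together with the Ccr1 named above. Neutrophil-like cells, with 3 libraries, carried Cxcl2 at 151, 119 and 111 CPM from 5, 4 and 16 cells and Ccl6 at 47.3, 55.5 and 86.9 CPM.

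Some high values came from single cells. In the sorted library, fibroblast-like cells had Ccl2 at 402 CPM, Cxcl5 at 242 CPM, Cxcl1 at 233 CPM and Ccl7 at 194 CPM, but 1 of 396 cells held 2034 UMIs of members, or 15.2% of its 13339 UMIs. That cell had 605 of 613 UMIs of Cxcl5, 573 of 1016 of Ccl2, 457 of 588 of Cxcl1, 201 of 490 of Ccl7, 125 of 143 of Cxcl2 and all 69 of Cxcl3. Without the highest cell of each gene the levels were 175 CPM for Ccl2, 114 for Ccl7, 51.8 for Cxcl1, 7.12 for Cxcl2 and 3.16 for Cxcl5. The remaining Ccl2 and Ccl7 UMIs were still spread over 31 and 22 cells, counting the first. Among erythroid-like cells, a single cell of replicate 1 held all 49 Cxcl2 UMIs, 32 of 48 of Ccr2 and 24 of 38 of Ccl6. In mural-like cells of replicate 1, a single cell held all 41 Cxcl2 UMIs, 32 of 33 of Ccl4 and 8 of 10 of Cxcr2. No fold is read from these populations.

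**Figure D5:**
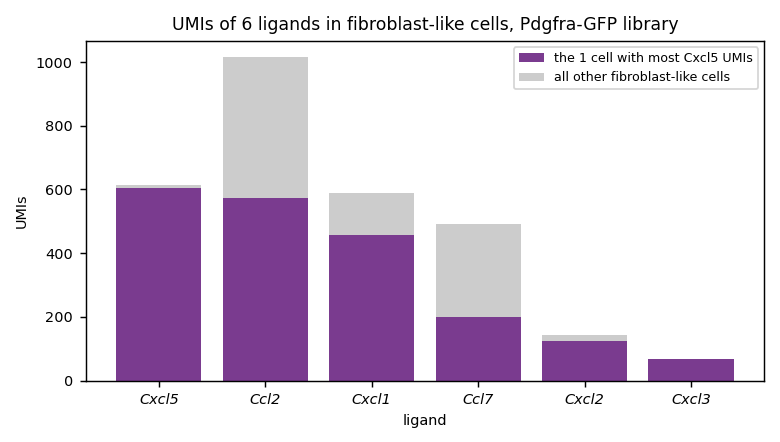
UMIs of 6 ligands in the 396 fibroblast-like cells of the Pdgfra-GFP library, split into the 1 cell with most Cxcl5 UMIs and all other cells. The 1 cell holds 605 of 613 Cxcl5 UMIs and 573 of 1016 Ccl2 UMIs.

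These 6 ligands lie in a pair of clusters. Cxcl5, Cxcl3, Cxcl1 and Cxcl2 are within chr5:90759360-90905938, where Cxcl15 between them had 5 UMIs in all cells. Ccl2 and Ccl7 are neighbours at chr11:82035571-82047525, followed by Ccl11, Ccl12 and Ccl8. RefSeq windows of 250 bases were at hand for Cxcl1, Cxcl2 and Cxcl3 and are shown because 1 cell held these ligands together. The windows are chr5:90890995-90891244, chr5:90903649-90903898 and chr5:90785851-90786100, all on the plus strand and printed 5′ to 3′. Capitals mark matches to the NF-kB motif and, in Cxcl3, also to the TATA box letters.
Cxcl1: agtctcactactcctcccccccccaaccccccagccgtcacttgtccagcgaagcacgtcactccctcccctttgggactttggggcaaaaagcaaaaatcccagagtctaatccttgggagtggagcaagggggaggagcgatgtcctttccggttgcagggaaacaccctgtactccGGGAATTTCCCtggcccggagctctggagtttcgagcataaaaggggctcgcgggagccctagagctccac
Cxcl2: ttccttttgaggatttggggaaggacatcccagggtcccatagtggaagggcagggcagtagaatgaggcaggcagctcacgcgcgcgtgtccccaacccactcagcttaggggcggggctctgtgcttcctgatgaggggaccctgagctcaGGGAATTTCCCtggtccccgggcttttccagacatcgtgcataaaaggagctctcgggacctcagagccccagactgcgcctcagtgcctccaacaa
Cxcl3: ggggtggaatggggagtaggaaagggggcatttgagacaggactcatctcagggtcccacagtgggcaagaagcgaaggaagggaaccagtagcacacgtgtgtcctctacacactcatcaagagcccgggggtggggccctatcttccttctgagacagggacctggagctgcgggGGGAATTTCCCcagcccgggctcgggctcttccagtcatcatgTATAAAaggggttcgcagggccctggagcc
Each window held 2 overlapping NF-kB matches on opposite strands over the same 11 letters, at -71 to -61 in Cxcl1, -97 to -87 in Cxcl2 and -73 to -63 in Cxcl3. The motif occurred in a window of 8 of the 38 symbols (Ackr2, Ccl20, Ccl9, Ccr3, Ccr6, Cxcl1, Cxcl2 and Cxcl3) and in 3.90% of all 32851 windows. A match is a description of the letters and no measure of binding.

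Each tested population was also compared with the mean of the other 11. Members called higher numbered 8 in dpMSC-like cells (30.2% of all genes were called higher), 3 in mpMSC-like (18.3%), 3 in SC-like (12.5%; Ackr4, Ccl19 and Ccl3), 2 in OB-like (28.7%) and 4 in chondrocyte-like cells (28.4%). Ackr3 and Ackr4 in OB-like cells and Cxcl14 in chondrocyte-like and mpMSC-like cells are among these calls, each below its near-empty level in every library. The endothelial-like classes had 5 in aEC-like (19.1%), 2 in mpEC-like (23.8%) and 3 in bmEC-like cells (28.9%). B-lineage-like cells had 4 (19.9%), neutrophil-like cells 10 (21.8%), mural-like cells 5 (10.2%) and erythroid-like cells 13 (17.5%). In the mural-like and erythroid-like populations the calls include Ccl6, Cxcl2 and Cxcr2, of whose UMIs the single cells above held a large part. Each of the 20 tested members was higher in at least 1 population, which the filter on low counts favours.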

How the data were processed

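The authors demultiplexed the reads with bcl2fastq, trimmed them with fastp 0.20 and aligned them to mm10 with Gencode M23 and an added H2B-GFP sequence, using STAR 2.7.3a in its STARsolo mode. The deposited files hold raw, unfiltered UMI counts for 55422 genes in 3 libraries (25243314, 22082735 and 91747759 UMIs). Following the methods of the study, cells were kept with at least 1500 genes (metaphyseal) or 1000 genes (Pdgfra-GFP), with mitochondrial UMIs up to 15% and ribosomal UMIs up to 30%. EmptyDrops was not used here. Scrublet called 27, 6 and 165 cells doublets (1.13%, 0.298% and 1.46%), which were kept. The expected rates were 1.91%, 1.61% and 9.05%, so removing the called doublets is a weak check, most of all in the sorted library.

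Each cell was assigned to the marker list with the highest score, if it led by a margin of 0.25. For each population of 10 or more cells in a library, UMIs were added up, and these sums were tested in edgeR 4.0.16 (R 4.3.3) with the quasi-likelihood test, TMM scaling, filterByExpr, the library as a block and Benjamini-Hochberg adjustment over the 10401 genes at 0.05. The block was used because all populations of a library share 1 cell suspension. The script was tested on simulated data. Named are members with a mean of at least 50 CPM in a population and members called in 1 of the 7 comparisons of classes. A gene with 0 UMIs was set against a floor of 3 UMIs over the group. The values of 1 receptor are not reported here. Members and gene lists were chosen with earlier results of these data known. Alternatives were DESeq2 1.42.0 and its size factors, other filters, gates and clusters, no block, and each library left out. Gene positions came from a GENCODE annotation and windows before the start from RefSeq tables of GRCm38.p6. The start of a gene can differ between these sources, so a window can overlap a printed gene span.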

Additional observations from a re-analysis of the deposited data

Results flagged for a closer look

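The log2 ratio of Ackr4 between SC-like and mpMSC-like cells (CPM plus 1) was 0.653 and 0.589 in metaphyseal replicates 1 and 2 but -0.0939 in the Pdgfra-GFP library. Both metaphyseal libraries thus had a higher level in SC-like cells, and the sorted library had nearly equal levels. The ratios rested on 160, 98 and 2047 UMIs of the 2 classes together. The difference between the libraries was not tested, because there is 1 sorted library. The underlying levels were 221, 189 and 192 CPM for SC-like cells and 140, 125 and 205 CPM for the mpMSC-like class, and the sort of the library and the library itself cannot be told apart.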

How the results depend on the processing

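The 7 comparisons of classes gave 42 calls of members, which were recomputed under 12 alternatives and 2 more chosen after seeing the data (the highest cell of each gene left out of each sum, and no erythroid-like and mural-like sums). Of 577 values, 524 kept direction and side of the threshold, 52 kept direction only and 1 reversed, and 23 calls held wherever they could be computed. The reversed value was Ccl2 in OB-like against mpMSC-like cells, whose log2 fold change ranged from -1.95 to 0.29 with each library left out and was 0.29 without the Pdgfra-GFP library, and the cause was not tested. DESeq2 size factors lost no call. Without a replicate block, 7 of 42 calls were lost, and bmEC-like against mpEC-like cells fell from 5 to 3 called members. Without the filter on low counts, more members were tested, and the called members rose from 20 to 35 over populations, from 2 to 4 for SC-like, 8 to 15 for dpMSC-like and 7 to 12 for OB-like against mpMSC-like cells, and from 8 to 17 for the endothelial-like classes. Counts under the alternatives are given without the share of all genes called, so no change in share is read from them. SC-like against mpMSC-like cells had 1 called member with the DESeq2 Wald test and 0 without the highest cells, and could not be run on clusters, since a cluster of SC-like cells was found in 1 library only. On clusters, bmEC-like and aEC-like against mpEC-like cells had 1 and 3 called members in place of 5 and 6, and without doublets the former had 3; the cause was not tested. With each library left out in turn, called members ranged from 1 to 2 for SC-like, 4 to 6 for OB-like, 1 to 6 for bmEC-like and 4 to 7 for aEC-like cells. Depth limits the small metaphyseal populations, where 3 UMIs are 11.03 and 15.7 CPM in SC-like cells (27 and 17 cells) and 21.8 and 20.3 CPM in mural-like cells (20 and 19 cells).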

Other observations

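Ccl25, a thymus and gut chemokine that ACKR4 binds, did not pass the filter for testing but had 936 UMIs in 883 cells. Its level was 13.7, 14.0 and 8.75 CPM in dpMSC-like, 14.9, 12.7 and 8.66 CPM in mpEC-like and 11.2, 20.2 and 9.37 CPM in mpMSC-like cells, so the populations overlapped. Near-empty droplets of metaphyseal replicate 1 carried 6.51 CPM.

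Ccl24, an eosinophil attractant, had 45 UMIs in 26 of 299 SC-like cells of the Pdgfra-GFP library (18.5 CPM, 95% Poisson interval 13.5 to 24.7), against 4.43 CPM in mpMSC-like cells and 0.562 CPM in dpMSC-like cells of that library. The metaphyseal libraries had 1 UMI each in SC-like cells, and the gene was not tested.

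Ccl11, another eosinophil attractant, reached 28.5 CPM in fibroblast-like cells from 16 of 396 cells and had 0 UMIs in both metaphyseal libraries. Ccl17 stood at 10.1, 7.83 and 19.0 CPM in dpMSC-like cells.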
